A study of Arabidopsis thaliana with 22 samples.

Results

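The genes described are psaA, psaB, psaC, psaI and psaJ, the photosystem I subunit genes carried by the plastid genome of Arabidopsis thaliana. They were chosen by name in the plastid gene annotation, and they make up 5 of the 112 plastid genes analysed. All 5 lie in a single copy. psaA and psaB are neighbours, 25 bp apart, and are called here the psaA-psaB unit, while psaC, psaI and psaJ are short genes at separate places, called here the small genes. Plastid DNA accessibility was measured by ptATAC-seq, in which the transposase Tn5 inserts sequencing adapters into DNA it can reach and each insertion is counted at its position. Both fractions compared, nucleoid (the plastid genome with its bound proteins) and naked (plastid DNA), came from leaf chloroplasts of wild-type plants of the Col0 ecotype. The labels describe plants 14 days old, chloroplasts fixed with 4% formaldehyde for 4 h and Nextera libraries, with the same protocol text for both fractions, and they do not say how the naked DNA was made. Naked DNA is the background measured the same way, because Tn5 also cuts bare DNA unevenly.

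Photosystem I is the thylakoid membrane complex that uses light to move electrons from plastocyanin to ferredoxin. PsaA and PsaB form the core heterodimer, which binds the special chlorophyll pair and most of the pigments and electron carriers. PsaC sits on the stromal face and holds the terminal iron-sulphur clusters, from which ferredoxin takes its electrons. PsaI and PsaJ are small single-helix membrane subunits at the edge of the complex. In land plants psaA and psaB are transcribed together with rps14, psaC lies in a transcription unit of NDH complex genes, psaI lies downstream of accD and upstream of ycf4, and psaJ is followed by rpl33 and rps18. The study's title links nucleoid organization to transcribed genes, and these 5 genes encode products of 1 complex from 4 separate places.

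The labels give 11 replicates of each fraction. The columns of nucleoid replicates 9 and 10 were identical at all 154477 positions and were used as 1 library, which left 10 nucleoid and 11 naked libraries. Nothing in the labels says that replicates came from separate plants or days, so p-values measure the spread between these libraries, which may be technical. Total counts ran from 202725 to 1813905 in nucleoid libraries and from 105763 to 1195649 in naked libraries, with 8 nucleoid and 5 naked libraries above 600000, called deep here. Naked replicates 9, 10 and 11 stood apart from the others. Their small single copy region had a mean of 18.8% to 30.7% of the genome mean, against 52.3% to 78.6% in naked replicates 1 to 8 and 55.8% to 81.0% in nucleoid libraries. Differences of the member genes, of the member windows that passed and of the flanks described are given with and without these 3 libraries. Other values include them unless stated. Signal below means the mean count per position over a gene or window, as a percent of the same library's mean over the plastid genome, so 100 is the genome mean and values are relative, not absolute.

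The psaA-psaB unit and psaC lay above the genome mean in every library of both fractions, and psaI lay below it in every library. psaJ lay below it in all 10 nucleoid libraries and in all naked libraries except 1, which stood at 100.2. None of the 5 genes passed the test between fractions. Over all genes 38 of 112 passed, which is 33.9%, with 11 higher in nucleoid (9.82%) and 27 lower (24.1%). With 5 members, a count of 0 says little about the group. Genes were tested with limma on log2(signal + 1), in both directions, and p-values were adjusted over all 112 genes by the Benjamini-Hochberg method, with a threshold of 0.05. Among the members 1 had an unadjusted p below the threshold, beside 56 of all 112 genes. By limma's voom on the counts 0 members were called, with 0 unadjusted, beside 36 called and 50 unadjusted over all 112 genes.

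psaA (ArthCp022, 2253 bp) had a lowest signal of 118.7, a median of 131.8 and a highest of 152.9 in nucleoid libraries. In naked libraries its lowest signal was 123.7, its median 144.5 and its highest 187.2. The 3 highest naked values belonged to replicates 9, 10 and 11, and below them the fractions overlapped almost completely. The means were 134.0 ± 11.0 (SD, n = 10) and 147.8 ± 19.5 (SD, n = 11), a log2 difference of -0.13 (SE 0.07, 95% interval -0.28 to 0.01, limma adjusted p = 0.114). Without naked replicates 9, 10 and 11 the difference was -0.04 (95% interval -0.16 to 0.07).

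psaB (ArthCp021, 2205 bp) followed psaA at a slightly lower level. Its nucleoid signal had a lowest value of 111.4, a median of 119.9 and a highest of 151.4, and its naked signal a lowest value of 114.3, a median of 130.5 and a highest of 168.7. The nucleoid maximum came from replicate 4, and the next highest nucleoid library stood at 135.3. Naked replicates 9, 10 and 11 were again the 3 highest naked values, at 147.3 to 168.7. The means were 124.5 ± 11.9 (SD, n = 10) and 134.0 ± 16.3 (SD, n = 11), a log2 difference of -0.10 (SE 0.07, 95% interval -0.24 to 0.04, limma adjusted p = 0.199). Without those 3 libraries it was -0.02 (95% interval -0.13 to 0.10).

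psaC (ArthCp075, 246 bp) is the member that lies in the small single copy region. Its signal had a lowest value of 114.2, a median of 123.9 and a highest of 162.9 in nucleoid libraries, and 109.2, 134.1 and 160.6 in naked libraries. The fractions covered the same range. The means were 131.8 ± 17.3 (SD, n = 10) and 134.4 ± 18.9 (SD, n = 11), and the log2 difference was -0.03 (SE 0.08, 95% interval -0.20 to 0.15, limma adjusted p = 0.818).

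psaC did not share the low values of its region in naked replicates 9, 10 and 11. There it stood at 114.3, 155.6 and 160.6, while the mean of the region around it was 18.8 to 30.7. Set against the mean of the small single copy region in place of the genome mean, psaC reached 522.5% to 829.7% in those 3 libraries. It was 139.0% to 304.2% in naked replicates 1 to 8 and 142.6% to 291.9% in nucleoid libraries. Another gene of that region, trnL (Arthct122), also varied little over the naked libraries, at 87.4 ± 16.3 (SD, n = 11) of the genome mean. psaC was therefore not the only gene there without such a fall.

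psaI (ArthCp032, 114 bp) was the lowest member in nucleoid libraries, with a lowest signal of 48.1, a median of 65.4 and a highest of 79.4. In naked libraries its lowest signal was 20.3, its median 54.5 and its highest 82.0. Naked replicates 1 to 8, at 47.6 to 82.0, spanned the nucleoid range, and replicates 9, 10 and 11 lay far below it at 20.3 to 28.3. The means were 63.5 ± 10.1 (SD, n = 10) and 52.5 ± 21.2 (SD, n = 11), a log2 difference of 0.39 (SE 0.22, 95% interval -0.08 to 0.85, limma adjusted p = 0.142). Without those 3 libraries it was 0.003 (95% interval -0.23 to 0.23). The shallowest library held 64 counts in psaI among naked replicates 1 to 8, and replicates 9, 10 and 11 held 32 to 79.

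psaJ (ArthCp042, 135 bp) had the widest gap between fractions and the widest spread. Its nucleoid signal had a lowest value of 75.6, a median of 88.9 and a highest of 94.3, the tightest range of any member. Its naked signal had a lowest value of 12.8, a median of 74.3 and a highest of 100.2. Naked replicates 9, 10 and 11 stood at 12.8 to 23.9, and the other 8 at 70.8 to 100.2 overlapped the nucleoid libraries. The means were 88.0 ± 6.29 (SD, n = 10) and 64.6 ± 31.3 (SD, n = 11), a log2 difference of 0.70 (SE 0.32, 95% interval 0.04 to 1.36, p = 0.0393, limma adjusted p = 0.0922). Without the 3 libraries it was 0.10 (95% interval -0.03 to 0.24, adjusted p = 0.265).

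**Figure D1:**
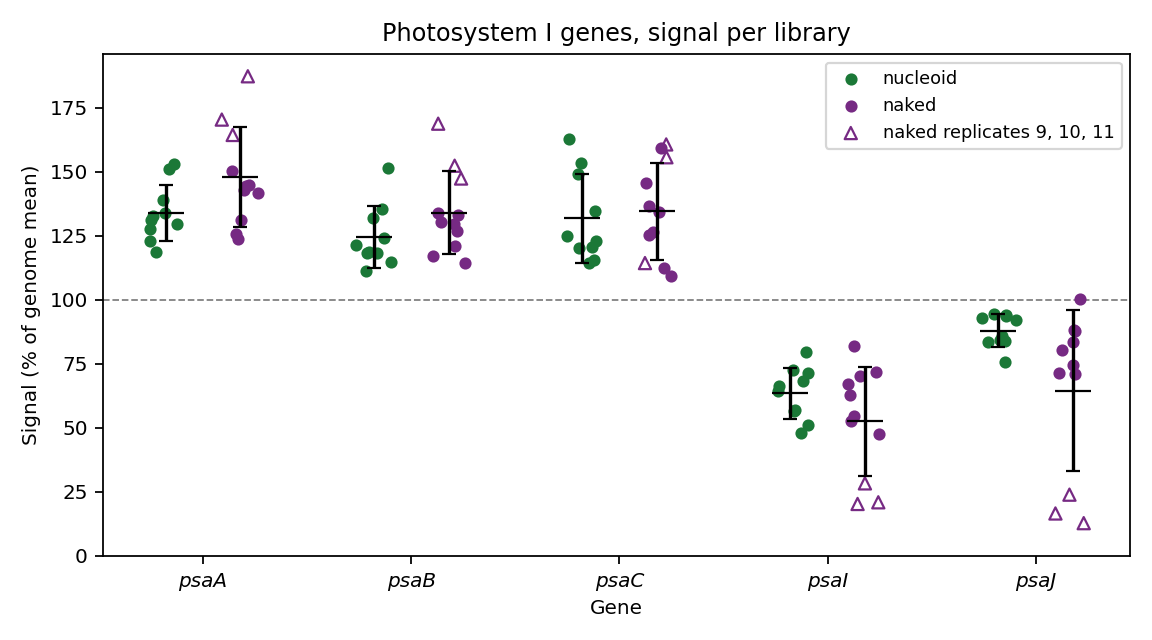
Signal of each photosystem I gene in each library (percent of the genome mean, y axis; gene, x axis), with points for libraries and bars for the mean ± SD of 10 nucleoid and 11 naked libraries. Open triangles are naked replicates 9, 10 and 11, which are highest for psaA and psaB (147.3 to 187.2) and lowest for psaI and psaJ (12.8 to 28.3).

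The variation between libraries thus differed by gene and fraction. In nucleoid libraries the coefficient of variation was 7.15% for psaJ, 8.22% for psaA, 9.59% for psaB, 13.1% for psaC and 15.8% for psaI. In naked libraries it was 12.1% for psaB, 13.2% for psaA and 14.02% for psaC, but 40.4% for psaI and 48.5% for psaJ. Among naked replicates 1 to 8 alone, psaI and psaJ varied by 18.1% and 12.2%.

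The order of the mean levels was psaA, psaC, psaB, psaJ, psaI in both fractions, on the per-position scale, which allows genes of different length to be compared. Neighbours in this order were compared within libraries by an exact sign-flip test, two-sided, adjusted over 8 comparisons. In nucleoid libraries psaA and psaC differed by 0.03 on the log2 scale (psaA higher in 6 of 10, exact adjusted p = 0.712) and psaC and psaB by 0.08 (7 of 10, exact adjusted p = 0.380), so their order was not resolved. psaB was above psaJ in 10 of 10 nucleoid libraries by 0.49, and psaJ above psaI in 10 of 10 by 0.48 (exact adjusted p = 0.00521 for each). In naked libraries psaA was above psaC in 9 of 11 by 0.14 (exact adjusted p = 0.0195), or in 6 of 8 by 0.08 among naked replicates 1 to 8, and psaC and psaB differed by 0.0006 (exact adjusted p = 0.991). psaB was above psaJ in 11 of 11 naked libraries by 1.30 (exact adjusted p = 0.00521), and in all of naked replicates 1 to 8 by a mean of 0.62. psaJ was above psaI in 7 of 11 by 0.17 (exact adjusted p = 0.356), and in 7 of naked replicates 1 to 8 by a mean of 0.38.

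Among all 112 genes, ranked from the highest mean signal, psaA was 12th in nucleoid and 19th in naked libraries, psaC 13th and 29th, psaB 22nd and 30th, psaJ 77th and 97th, and psaI 107th and 106th. Ranked from the most positive difference between fractions, psaJ was 2nd, psaI 21st, psaC 68th, psaB 74th and psaA 78th. Without naked replicates 9, 10 and 11 psaJ was 17th, psaC 47th, psaI 49th, psaB 59th and psaA 67th. The median difference was 0.10 over all genes, 0.16 over the 78 protein-coding genes and -0.03 over the members. Scaling each library to the median of its 200 bp windows, in place of the genome mean, moved the median of all genes from 0.10 to -0.05. That scaling shifts all genes alike. Relative to the median of all genes psaA lay at -0.24 under the genome mean, psaB at -0.20, psaC at -0.13, psaI at 0.29 and psaJ at 0.60. Scaled to the mean of the region each gene lies in, the same values were -0.16 for psaA, -0.12 for psaB, -0.50 for psaC, 0.37 for psaI and 0.68 for psaJ. The difference of psaC itself was -0.55 under that scaling and did not pass (SE 0.27, limma adjusted p = 0.116). The split of calls over all genes moved from 11 higher and 27 lower to 1 higher and 30 lower under median scaling. Under region scaling it was 7 higher and 30 lower.

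The contrast between the psaA-psaB unit and the small genes was taken per library, as log2(signal + 1) of the unit minus the mean of that of psaC, psaI and psaJ. It is a description of chosen genes and carries no test. The contrast was above 0 in all 21 libraries, although psaC alone stood above both genes of the unit in some of them, such as nucleoid replicate 11, with psaC at 162.9, psaA at 131.1 and psaB at 118.6. In nucleoid libraries the contrast had a lowest value of 0.27, a median of 0.51 and a highest of 0.77 (mean 0.52 ± 0.15, SD, n = 10). In naked libraries it had a lowest value of 0.38, a median of 0.69 and a highest of 2.47 (mean 0.99 ± 0.72, SD, n = 11). Naked replicates 9, 10 and 11 stood at 2.47, 1.68 and 2.05, all above every other library.

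The remaining 8 naked libraries ran from 0.38 to 0.77, overlapping the nucleoid libraries, with a mean of 0.59 ± 0.14. In deep libraries the means were 0.49 ± 0.15 (SD, n = 8) for nucleoid and 0.52 ± 0.13 (SD, n = 5) for naked. Without the 3 libraries the fraction means thus lay less than 1 SD apart. The 3 libraries were also among the least even along the genome, with an SD of log2(signal + 1) over 200 bp windows of 1.43, 1.36 and 1.63.

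**Figure D2:**
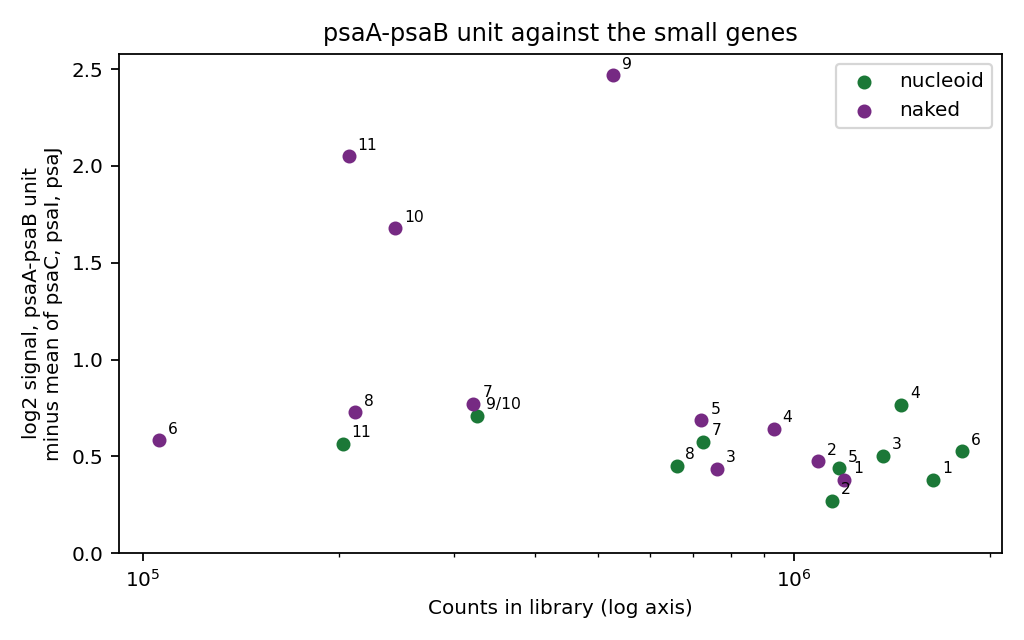
The log2 signal of the psaA-psaB unit minus the mean of psaC, psaI and psaJ (y axis) against the total count of each library (x axis, log scale), with the replicate number beside each point. Naked replicates 9, 10 and 11 stand at 1.68 to 2.47, and the other 18 libraries of both fractions lie between 0.27 and 0.77.

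In 3 of the 5 genes signal moved with depth in 1 set of libraries, by Pearson r. Such relations were computed for the members only, so no share over all genes stands beside this count. Evenness differed with depth too. The SD over 200 bp windows was 0.71 and 0.96 in nucleoid replicates 9 and 11, the shallowest, and 0.44 to 0.66 in deep nucleoid libraries. The part of evenness in these relations was not tested. Over the 10 nucleoid libraries the signal of psaC fell with log2 depth, with Pearson r = -0.93 (permutation p = 0.00042, adjusted 0.0021) and Spearman rho = -0.73 (permutation p = 0.0197, adjusted 0.0658), and leaving out the 2 libraries whose depth lay farthest from the median gave r = -0.80. The signal of psaI rose with depth in the same libraries, with r = 0.90 (permutation p = 0.00038, adjusted 0.0021) and rho = 0.81 (permutation p = 0.00726, adjusted 0.0363), and the r left without such a pair was 0.76. psaJ rose with depth over naked replicates 1 to 8, 8 libraries picked with their values in view, with r = 0.87 (exact permutation p = 0.00203, adjusted 0.00678) and rho = 0.90 (exact permutation p = 0.00456, adjusted 0.0363), with r = 0.81 once the pair was left out. In nucleoid libraries psaJ had r = 0.61 (permutation p = 0.0919, adjusted 0.230) and rho = 0.16 (permutation p = 0.657, adjusted 0.815), with r = -0.004 once the pair was left out, so that value rested on those 2 libraries.

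The other relations of the 10 computed, psaA and psaB in either set and psaC and psaI in naked replicates 1 to 8, did not pass, with adjusted p from 0.312 to 0.999 for r. In naked replicates 1 to 8, leaving out the pair moved r from 0.02 to 0.87 for psaI and from -0.43 to -0.74 for psaC. Fractions also differed in depth, since deep libraries were 8 of 10 in nucleoid and 5 of 11 in naked. In deep libraries alone the differences were -0.02 for psaA (95% interval -0.14 to 0.11), 0.01 for psaB (-0.14 to 0.15), 0.02 for psaC (-0.13 to 0.17), 0.03 for psaI (-0.15 to 0.22) and 0.03 for psaJ (-0.09 to 0.15).

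Within the unit, psaA and psaB moved together. psaA was above psaB in 20 of 21 libraries, and the exception was nucleoid replicate 4, where psaA stood at 150.9 and psaB at 151.4. The log2 ratio of psaA to psaB averaged 0.11 ± 0.05 (SD, n = 10) in nucleoid and 0.14 ± 0.03 (SD, n = 11) in naked libraries, a difference of -0.03 that did not pass a permutation test (two-sided, 100000 resamples, p = 0.0840). In deep libraries the difference was -0.02 (exact permutation p = 0.319).

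Each long gene was also divided at its midpoint, over the 45 genes of 600 bp or more. The log2 ratio compared was that of the stretch at lower coordinates to the stretch at higher coordinates. In psaA and psaB this is the 3′ stretch over the 5′ stretch. limma called 0 of 45 (0.0%), with 10 at an unadjusted p under 0.05. In psaA the 3′ stretch was above the 5′ stretch in 10 of 10 nucleoid libraries, with mean signals of 141.2 ± 14.7 and 126.7 ± 8.49 and a log2 ratio of 0.15 ± 0.10. In naked libraries the psaA ratio was 0.09 ± 0.14, with 4 of 11 libraries below 0. The ratios differed by 0.06 (SE 0.05, limma adjusted p = 0.405), or by 0.10 without naked replicates 9, 10 and 11 (adjusted p = 0.258). In psaB the ratios were -0.02 ± 0.06 in nucleoid and -0.09 ± 0.14 in naked libraries, a difference of 0.07 (SE 0.05, limma adjusted p = 0.352). Without naked replicates 9, 10 and 11 the psaB difference was 0.01 (adjusted p = 0.896).

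Windows of 200 bp gave a finer view of the unit. Over all 772 windows of the plastid genome 176 passed (22.8%), of which 86 were lower in nucleoid (11.1%). Among the 29 windows that overlap a member 5 passed (17.2%), a smaller share than the 22.8% of all windows. All 5 were lower in nucleoid and lay in the unit, beside 11.1% of lower calls in the genome. That direction was taken from the calls themselves, and neighbouring windows share libraries, so the count is a description. Of the 24 windows of the unit 18 had a difference below 0, beside 253 of all 772 windows. The median of the unit's windows was -0.13 against 0.16 over all windows. The 5 windows of psaC, psaI and psaJ had none called, and their differences ran above 0, from 0.04 to 0.68. All these window values include naked replicates 9, 10 and 11. Without those 3 libraries the median over all windows was 0.06, and psaA and psaB as whole genes stood at -0.04 and -0.02.

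In psaB the window Pltd:39201-39400 had the smallest adjusted p of the unit, near the 5′ end of the gene. Its signal was 134.0 ± 13.3 in nucleoid and 162.2 ± 22.1 in naked libraries, a log2 difference of -0.27 (SE 0.08, limma adjusted p = 0.0212). The window Pltd:38801-39000, also in psaB, had 122.8 ± 11.2 and 147.4 ± 25.2, a difference of -0.25 (SE 0.09, limma adjusted p = 0.0466).

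In psaA 3 windows passed. The largest difference lay at Pltd:41401-41600, near the 5′ end of psaA, with 134.1 ± 10.6 in nucleoid and 165.3 ± 30.9 in naked libraries, -0.28 on the log2 scale (SE 0.09, limma adjusted p = 0.0353). Next to it Pltd:41201-41400 had 146.7 ± 10.1 and 169.4 ± 21.1, a difference of -0.20 (SE 0.07, limma adjusted p = 0.0381). Pltd:39601-39800, at the 3′ end of psaA, had 116.0 ± 12.3 and 135.1 ± 16.3, a difference of -0.22 (SE 0.07, limma adjusted p = 0.0412).

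None of these 5 windows passed once log2 depth was added to the fit, with differences from -0.26 to -0.15, in deep libraries, with differences from -0.13 to -0.07, or without naked replicates 9, 10 and 11, with differences from -0.18 to -0.12 and adjusted p from 0.0736 to 0.191. The window Pltd:39201-39400 kept its call in each of the 21 fits with 1 library left out, and the other 4 lost it in 9 to 14 of those fits, with adjusted p up to 0.0841. Of the 5 calls, 1 was left without naked replicate 10 or 11 or nucleoid replicate 1, 2, 5, 6, 7 or 8, 2 without naked replicate 7 or 9, and 3 without naked replicate 6 or 8 or nucleoid replicate 3 or 9.

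Levels ranged widely along the unit in both fractions. The highest nucleoid window, Pltd:40601-40800 in psaA, stood at 170.8 ± 31.0 in nucleoid and 172.4 ± 41.1 in naked libraries, with a difference of 0.004. The lowest window wholly inside a gene of the unit, Pltd:41001-41200 in psaA, stood at 90.3 ± 14.2 and 99.0 ± 21.3.

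**Figure D3:**
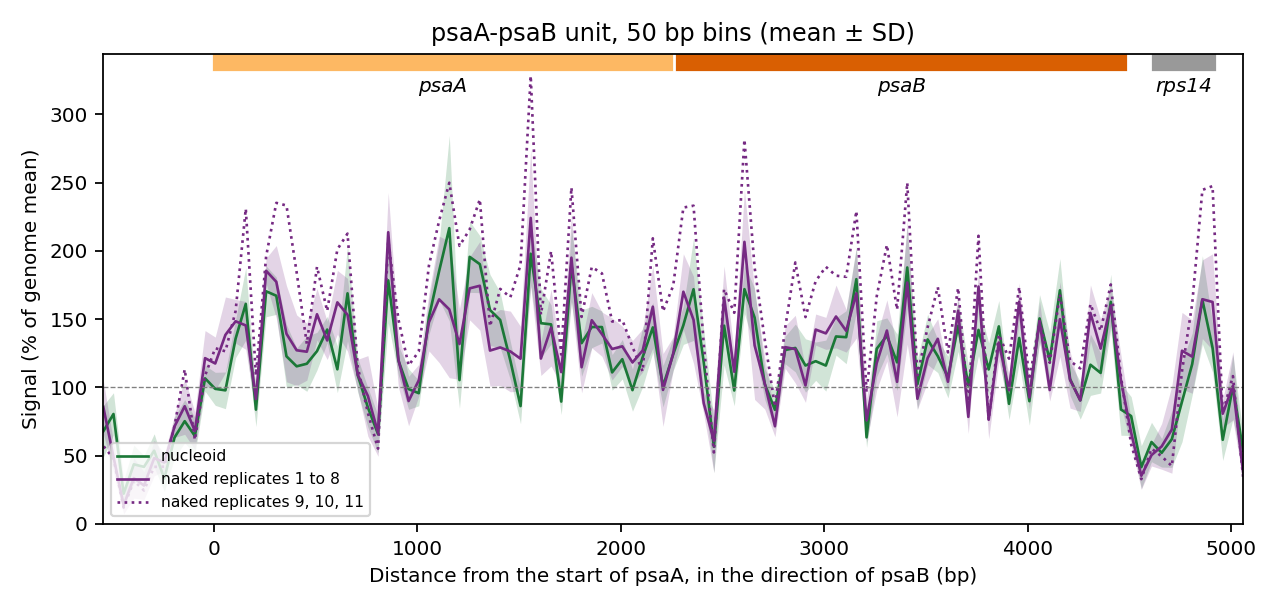
Signal in 50 bp bins (percent of the genome mean, y axis) along the psaA-psaB unit and rps14 (distance from the start of psaA toward psaB in bp, x axis), with lines for the mean of 10 nucleoid libraries, naked replicates 1 to 8 and naked replicates 9, 10 and 11, and bands of ± SD for the first 2 sets. The lines rise and fall at the same places, and the dotted line of the 3 separate libraries runs above the others over much of psaA and psaB, as do their gene values of 147.3 to 187.2.

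The profiles of the fractions ran close together at single positions. The correlation of the mean nucleoid and mean naked profiles over positions was 0.94 in psaA, 0.94 in psaB, 0.97 in psaC, 0.94 in psaI and 0.93 in psaJ, beside a median of 0.945 over all 112 genes (lowest 0.88, highest 0.99). Positions of a gene share libraries and neighbouring bases and are not replicates, so these values are descriptions. The most used 10% of positions held 45.3% to 54.6% of the nucleoid signal of a member and 46.7% to 59.4% of the naked signal. In psaA the strongest nucleoid position was Pltd 40930, at 1632 ± 356 (SD, n = 10) against 1650 ± 780 (SD, n = 11) in naked libraries. In psaJ position Pltd 66969 was the strongest in both fractions, at 699 ± 139 and 867 ± 399. In psaI the strongest nucleoid position, Pltd 59260, stood at 691 ± 131 against 425 ± 176 in naked libraries, where the strongest was Pltd 59296.

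The 200 bp on each side of a gene were tested for all genes, since promoters and the ends of transcripts lie there. Over the 223 such flanks 70 passed (31.4%), of which 47 were higher in nucleoid (21.1%). The median difference over all flanks was 0.24, or 0.10 without naked replicates 9, 10 and 11 and 0.07 in deep libraries. Differences of member flanks are read beside these medians. Among the 10 flanks of the members 1 passed, higher in nucleoid, and 6 had an unadjusted p under 0.05, beside 124 of all 223 flanks. The member flank that passed was that of psaC toward ndhD. It had a lowest signal of 39.2, a median of 49.7 and a highest of 63.5 in nucleoid libraries and 29.5, 39.7 and 50.3 in naked libraries. The ranges overlapped, and naked replicates 9, 10 and 11 were at 29.5 to 35.8. The means were 51.1 ± 6.80 and 39.6 ± 7.14, a log2 difference of 0.37 (SE 0.10, limma adjusted p = 0.0238). This call was lost without naked replicates 9, 10 and 11 (0.26, adjusted p = 0.0916), in deep libraries (0.26, adjusted p = 0.194), after adding log2 depth to the fit (0.26, adjusted p = 0.120) and without nucleoid replicate 6 (0.33, adjusted p = 0.0566).

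The flank of psaC on the other side, toward ndhE and upstream in the direction of transcription, had 55.0 ± 13.8 in nucleoid and 40.2 ± 15.9 in naked libraries (0.50, SE 0.21, limma adjusted p = 0.0662). It passed without naked replicate 1, 2 or 3 or nucleoid replicate 11 (adjusted p 0.0275 to 0.0421), and stood at 0.24 without naked replicates 9, 10 and 11 (adjusted p = 0.360) and at 0.20 in deep libraries (adjusted p = 0.394). psaC itself was above its flanks by 1.35 and 1.28 on the log2 scale in nucleoid libraries and by 1.75 and 1.81 in naked libraries. The naked values include naked replicates 9, 10 and 11, where the flanks stood at 29.5 to 35.8 toward ndhD and 17.2 to 26.6 toward ndhE. In naked replicates 1 to 8 the flanks stood at 32.4 to 50.3 and 26.2 to 62.3. With 200 bp added on each side of every gene, so that the flanks are included, psaC stood at 0.13 and passed (SE 0.04, limma adjusted p = 0.0322). In that setting 30 of 112 genes passed, 14 of them higher, and the median over all genes was also 0.13.

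The upstream flanks of the other genes did not pass. That of psaA had 80.9 ± 6.67 in nucleoid and 91.9 ± 10.4 in naked libraries, a difference of -0.18 (SE 0.07, limma adjusted p = 0.0538). It passed under median scaling (-0.33, adjusted p = 0.0370) and stood at -0.16 without naked replicates 9, 10 and 11 (adjusted p = 0.136). That of psaI had 47.2 ± 11.0 and 32.0 ± 16.3, a difference of 0.70 (SE 0.27, limma adjusted p = 0.0527), and the 3 separate naked libraries stood at 11.9 to 13.1 there. That of psaJ had 67.6 ± 8.34 and 49.0 ± 24.5, a difference of 0.72 (SE 0.33, limma adjusted p = 0.0783), with those 3 libraries at 9.52 to 17.1. The psaJ flank passed without naked replicate 1 (0.81, adjusted p = 0.0478). The upstream flank of psaB lies in psaA, and had 124.3 ± 10.9 and 139.1 ± 18.8 (-0.15, limma adjusted p = 0.0940). Without those 3 libraries the psaI, psaJ and psaB flanks stood at 0.28, 0.11 and -0.06 (adjusted p 0.292 to 0.479), and in deep libraries at 0.13, 0.08 and -0.02. The psaI flank passed with a pseudocount of 10 (0.53, adjusted p = 0.0463) and with any of 5 single libraries left out, namely naked replicate 1, 2, 3 or 4 or nucleoid replicate 11 (adjusted p 0.0261 to 0.0418).

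**Figure D4:**
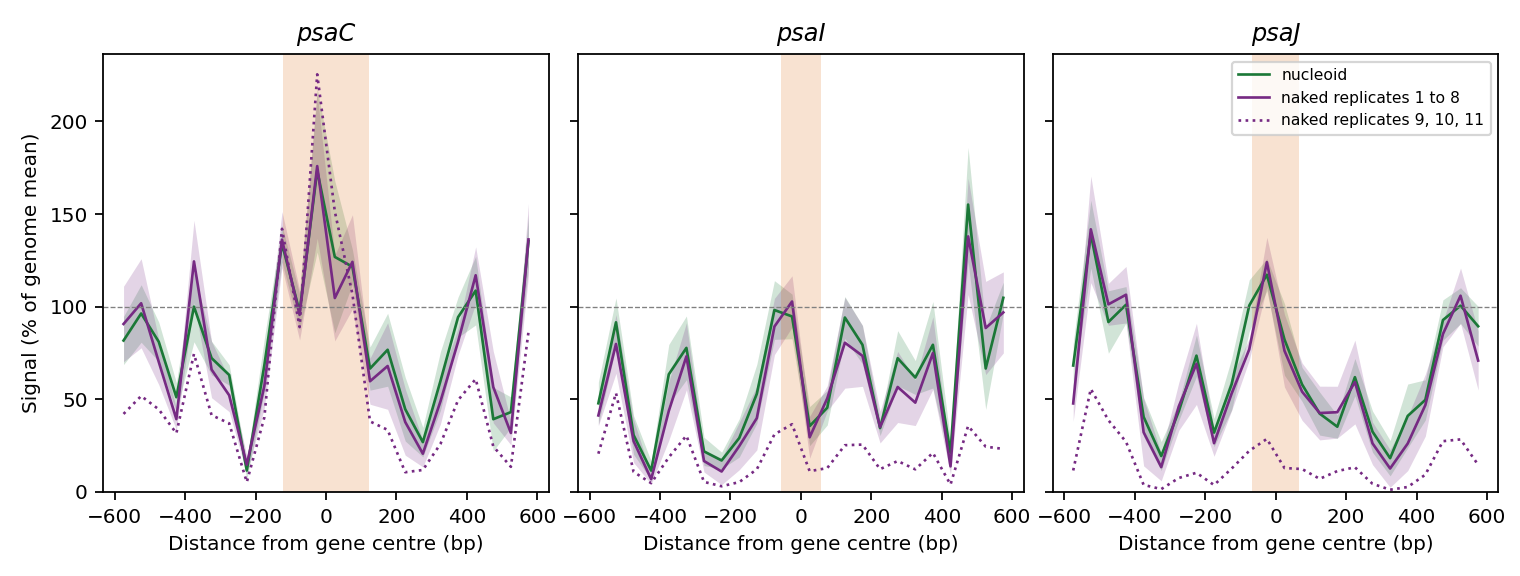
Signal in 50 bp bins (percent of the genome mean, y axis) around psaC, psaI and psaJ (distance from the centre of the gene in bp, x axis; the shaded band is the gene), with means of 10 nucleoid libraries, naked replicates 1 to 8 and naked replicates 9, 10 and 11, and bands of ± SD for the first 2 sets. The dotted line of the 3 separate libraries lies low across psaI and psaJ, whose gene values there are 12.8 to 28.3, and rises to the level of the other lines inside psaC, where they are 114.3 to 160.6.

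Genes transcribed together with the members were set beside them. rps14, a ribosomal protein gene downstream of psaB, was lower in nucleoid libraries, at 95.8 ± 14.7 against 116.0 ± 21.4 (log2 difference -0.27, SE 0.10, limma adjusted p = 0.0387). It lost its call without naked replicates 9, 10 and 11 (-0.19, adjusted p = 0.138), in deep libraries (-0.11, adjusted p = 0.514), and in 12 of the 21 fits with 1 library left out (adjusted p up to 0.0754). accD, a subunit gene of the plastid acetyl-CoA carboxylase and the neighbour of psaI, was higher, at 94.3 ± 3.02 against 87.0 ± 6.20 (0.12, SE 0.04, limma adjusted p = 0.0407). It lost its call in the same settings (0.08 with adjusted p = 0.0860, and 0.05 with adjusted p = 0.309) and in 13 of 21 fits with 1 library left out (adjusted p up to 0.0735), and under median scaling its direction turned (-0.04, adjusted p = 0.630). Of the other neighbours, ycf4 beside psaI stood at 0.41 (adjusted p = 0.187), ndhD and ndhE beside psaC at 0.28 (adjusted p = 0.155) and 0.30 (adjusted p = 0.0980), rpl33 and trnP beside psaJ at 0.52 (adjusted p = 0.134) and 0.21 (adjusted p = 0.444), all by limma.

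By the same limma test none of the 6 NDH genes of the psaC unit was called (median 0.53, from 0.28 to 0.69), while psaC among them stood at -0.03. Of 4 genes transcribed with psaI, accD alone was called (median 0.29), and of rpl33 and rps18, which follow psaJ, neither was (median 0.52). The photosystem I assembly genes ycf3 and ycf4, whose products help to build the complex, were not called (median 0.31). The medians of these lists stand beside 0.10 over all genes. Without naked replicates 9, 10 and 11 the median was 0.05 for the NDH genes, 0.05 for the genes with psaI, 0.04 for rpl33 and rps18 and -0.02 for ycf3 and ycf4, beside -0.01 over all genes.

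The other photosynthetic electron transport complexes are read against the same shares over all genes, 24.1% lower and 9.82% higher. In photosystem II, the water-splitting complex, 3 of 15 genes were lower in nucleoid, 0 were higher, and the median was 0.01. They were psbD (-0.26, limma adjusted p = 0.00684) and psbA (-0.26, adjusted p = 0.00737), which encode the reaction centre proteins, and psbC (-0.25, adjusted p = 0.0152), which encodes a core antenna protein. In the cytochrome b6f complex, which links the photosystems, 1 of 6 genes was higher, petB (0.15, limma adjusted p = 0.0136), and the median was 0.16. In deep libraries none of these 4 genes was called (adjusted p 0.103 to 0.370). psbC also lost its call without naked replicates 9, 10 and 11 (-0.17, adjusted p = 0.0618). petB lost it once log2 depth was added to the fit (0.11, adjusted p = 0.0784), and its direction turned under median scaling (-0.01, adjusted p = 0.954).

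The genes most like each member across the 21 libraries were found by Pearson r of log2(signal + 1), leaving out the other members. psaA went with atpA (r = 0.94) and atpB (0.89), and psaB with atpA (0.87) and psbD (0.86). psaC went with ndhK (0.82) and psbF (0.77), psaI with trnG (ArthCt092, 0.97) and ndhD (0.97), and psaJ with petG (0.99) and ndhI (0.99). These points share the 3 separate naked libraries and the depth of each library. Over the 18 libraries without those 3, the same pairs had r from 0.67 to 0.87.

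Between the members themselves psaA and psaB had r = 0.97 over 21 libraries and 0.92 over 18. psaI and psaJ had 0.93 over 21 but 0.42 over 18. psaA ran opposite to psaI (-0.84, and -0.51 over 18) and to psaJ (-0.84, and -0.58). psaC and psaI had -0.46 over 21 and -0.88 over 18, the same pair whose signals moved in opposite directions with depth in nucleoid libraries.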

How the data were processed

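ptATAC-seq libraries of Arabidopsis nucleoid and naked plastid DNA were compared by the fraction named in the labels. The authors deposited 1 table of whole-number counts per plastid position and, per the file headers, its positions follow TAIR10. Column totals differ, so the values were taken as not scaled between libraries. The labels do not say what a count is; signal was concentrated at few positions, so counts were read as transposase insertions and not as coverage. The submitters' processing notes name Trim Galore 0.4.1, Bowtie2 2.2.8.9 and bedtools 2.25.0; the shift of read ends, duplicate removal and the treatment of reads matching both inverted repeats are not given in the sources used here. All 22 columns were matched to samples. The members are single copy, so division of reads between repeats touches them only through the genome mean.

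Gene names and limits came from a RefSeq table of assembly TAIR10.1, whose coordinates are not printed. Positions of the inverted repeat copies sum to 238649 both in the counts (r = 0.91, next best 0.39 of 101 sums tried) and for ndhB in that table. The table used gives no strand, so flanks and gene stretches were set by coordinate, and 5′ and 3′ sides were named from the known order of each transcription unit. No sequence is printed.

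Signal was tested with limma 3.58.1 (R 4.3.3; lmFit, eBayes) on log2(signal + 1) over all genes, flanks, gene stretches or 200 bp windows, with a mean scaled count of at least 10, which removed none of the genes. edgeR was planned as an alternative and was not run, since the columns could not be recorded as counts. The fit was tested on simulated data. Sign-flip and permutation tests used scipy 1.17.1 with 100000 resamples or exact enumeration. Fold values on this scale slightly understate changes at low signal, and the lowest counts behind a gene were 2182 for psaA, 1970 for psaB, 213 for psaC, 32 for psaI and 30 for psaJ, so the small genes are less precise.

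The members and gene lists were chosen with earlier results of these data known. Besides the 5 members, the text names the 2 genes most correlated with each, the nearest gene on each side and list genes past the threshold (at most 4 a list). Alternatives covered depth, evenness, scaling, pseudocount, filter, voom, gene limits, capped positions, replicate block and each library left out.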

Additional observations from a re-analysis of the deposited data

Results flagged for a closer look

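In the flank of psaB that lies in psaA, nucleoid replicate 4 had a signal of 150.0, while the other 9 nucleoid libraries ran from 112.0 to 130.6. Its gap to the nearest library was 0.511 of the whole range, above Dixon's 95% limit for 10 libraries. It is the library that also held the highest psaB signal of the nucleoid libraries, 151.4, and the highest nucleoid contrast of the psaA-psaB unit with the small genes, 0.77. Of 19 values examined this way 1 stood out, and chance flags about 1 in 20, or 0.95 here. The naked fraction, with 11 libraries, was not examined this way.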

How the results depend on the processing

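Of the results on genes, gene stretches, the contrast and call counts, 287 repeats kept direction and call, 30 moved and 12 reversed. No member gene passed in any repeat except psaC with 200 bp added on each side, which turned to 0.1305 (limma adjusted p = 0.0322). The median over all genes was also 0.1305 in that setting, with 30 of 112 called. Over the settings of psaC the adjusted p reached 0.9947, without naked replicate 10. psaC also turned to 0.0212 in deep libraries, 0.0928 with log2 depth, 0.0876 with unevenness and 0.0075 without naked replicates 9, 10 and 11, and ran from -0.0611 to 0.0006 with 1 library left out, the latter without naked replicate 10. psaB turned to 0.0051 in deep libraries and 0.0046 with unevenness, where psaI turned to -0.1396 and psaJ to -0.0131. The psaB stretch ratio turned to -0.0249 in deep libraries, and the psaA flank toward psaB from -0.05 to 0.1276 in deep libraries, 0.0623 with log2 depth and 0.0911 without naked replicates 9, 10 and 11. The contrast of nucleoid libraries rose to 0.7876 without psaC. The cause of these shifts was not tested.

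Genes called lower, 27 in all, were 16 with 200 bp added and 14 in deep libraries. Genes called higher, 11 in all, were 1 in deep libraries, 1 with log2 depth, 1 with median scaling, 7 with region scaling, 3 with unevenness and 6 without naked replicates 9, 10 and 11. They ran from 4 to 16 with 1 library left out, with 4 without nucleoid replicate 9, 5 without nucleoid replicate 8 and 6 without naked replicate 10. Windows called over members, 5 in all, were 0 in deep libraries, with log2 depth and without naked replicates 9, 10 and 11, and 1 to 7 with 1 library left out. Flanks called, 70 in all, were 0 with log2 depth (48 unadjusted) and in deep libraries (44 unadjusted), 1 without naked replicates 9, 10 and 11, and 1 to 119 with 1 library left out. Windows called over the genome, 176 in all, were 1 in deep libraries, 3 with log2 depth, 55 without naked replicates 9, 10 and 11, 303 with the replicate block and 85 to 348 with 1 library left out, and stretch ratios called, 0 in all, reached 4. Member flanks called, 1 in all, were 2 with median scaling, where 45 of 223 flanks were called, and 0 to 5 with 1 library left out.

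Replicate numbers gave no clear pairing of the libraries. Of same-numbered pairs 7 of 10 correlated above 0.1 (from -0.07 to 0.72), and 1 of 10 nucleoid libraries correlated best with its own number. These values cannot exclude a batch shared by number. In the replicate block nucleoid replicate 9 stood with naked replicate 9. Naked replicate 10 was alone in its block and added nothing to the difference between fractions. With the replicate block 5 genes were called higher, psaC stood at 0.0006, and 4 member flanks and no member gene were called. These flanks were those of psaC and the upstream flanks of psaA and psaI (limma adjusted p = 0.0439 and 0.0146 for the upstream flanks of psaA and psaI). Over all flanks 105 of 223 were called with the replicate block, 82 of them higher. rps14 and accD lost their calls with the replicate block (adjusted p = 0.0676 and 0.0573). edgeR was not run. Fits of windows, flanks and stretches without naked replicates 9, 10 and 11 were chosen after seeing the data. psaI and psaJ rest on as few as 32 and 30 counts in a library.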
